A study of Mus musculus with 6 samples.

Results

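The piRNA pathway and germ granule genes were compared between mature sperm and testes of mice. Members were chosen by name: the RefSeq mRNA entries (accessions that begin with NM_) of 39 listed symbols, with the estimated counts of each gene summed over its transcripts. Of these names, 37 were found among the 14455 NM_ genes of the 6 samples. Gasz is an older symbol of Asz1, and Pnldc1 was not analysed here. By role, 28 of the 37 belonged to the piRNA pathway, the germ granules or the germ cell RNA-binding proteins, and 9 to the microRNA and siRNA machinery. Strand-specific paired-end sequencing of total RNA, depleted of rRNA with RNase H, was done on 4 sperm and 2 testes samples. By the labels the mice were C57BL/6, an inbred strain (C57BL/6J in the study's methods), and 3 to 5 months old, while the methods give a partly younger range in weeks. No treatment or genetic change was named for either group. Sperm were taken from the vas deferens and the caudal epididymis, pooled over mice and treated with a lysis buffer to remove somatic cells. The testes came from the same mice, so each sample was a pool.

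piRNAs are small RNAs bound by PIWI proteins, and in the male germ line they silence transposons and cleave or destabilise target RNAs. They are cut from long precursors at the mitochondrial surface and trimmed and methylated at the 3′ end. PIWI proteins are brought together by Tudor domain proteins, which bind methylated arginines, in germ granules such as the chromatoid body of the round spermatid. The microRNA and siRNA machinery (Drosha, Dgcr8, Dicer1 and the Argonaute proteins) makes and uses the other small RNAs of the same cells. Mature sperm have shed most of their cytoplasm and are held to be transcriptionally silent.

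Depth limited what could be seen of these genes in sperm. The NM_ counts summed to 33511 to 100027 in the 4 sperm libraries and to 314273 and 322625 in the testes libraries. Levels below are CPM, the count of a gene for every 1000000 NM_ counts of its sample, and a level of 3 counts, taken as the smallest that can be told from 0, was 30.0 to 89.5 CPM in a single sperm sample, 9.30 to 9.55 CPM in a testes sample and 16.0 CPM over sperm replicates 2 to 4 pooled. These limits cover counting error in sperm only. Fold bounds drawn from them below take the testes level as exact and leave out the spread between replicates, so they are no confidence limits. The comparison used sperm replicates 2, 3 and 4, because the study left out replicate 1, whose values are shown beside the others. The labels do not say which mice were in which pool. The study also reported that sperm RNA was mostly of small size and lacked the rRNA peaks seen in testes RNA. RNA integrity therefore differed along with the group, and its part in the results below was not tested. The edgeR p-values below rest on a spread between pools estimated over all genes, so the spread of a single gene hardly entered them. Spermatid and sperm markers summed to 1880 to 3589 CPM in sperm and to 3056 and 3450 CPM in testes, but only 3 to 8 of the 10 had a count in a sperm sample (9 and 10 in testes). The protamine Prm2, which packs sperm DNA, was present in all 4 sperm samples (1062, 1480, 1462 and 2392 CPM), whereas Prm1 was at 0 in sperm replicate 3 and Odf1 at 0 in all 4. In the edgeR test described below, 8 of the 10 had a negative log2 fold change and Prm1 (-4.13, adjusted p = 0.0297) and Tnp1 (-4.83, adjusted p = 0.0285) were called lower in sperm. All 7 spermatocyte markers measured were at 0 in all 4 sperm samples (102 and 105 CPM summed in testes). Of the Sertoli cell markers 6 of 8 were at 0 in all 4 sperm samples, and the list summed to 0 to 40.0 CPM in sperm and 64.9 to 89.9 CPM in testes. Of the Leydig cell markers 3 of 5 were at 0 in all 4 sperm samples, and the list ran from 0 to 1194 CPM in sperm, where the 1194 CPM of sperm replicate 3 came from 40 counts of Star alone. Spermatogonia markers summed to 100 to 307 CPM in sperm and 772 and 1002 CPM in testes. Gfra1 alone gave 750 and 980 CPM of that testes sum and was called lower in sperm (log2 fold change -3.09, edgeR adjusted p = 0.0109). Sohlh1, the only other marker of this list tested, had 142, 80.0, 0 and 0 CPM in sperm against 6.20 and 6.36 CPM in testes. Its log2 fold change was 2.34 (edgeR adjusted p = 0.1605), so it was not called. Epididymal epithelium markers summed to 80.0 to 269 CPM in sperm and 102 and 188 CPM in testes, and blood cell markers to 0 to 73.6 CPM in sperm and 25.5 and 49.6 CPM in testes. The part of such cells in the results below was not tested.

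In testes 31 and 36 of the 37 members had a count, whereas the sperm replicates 1 to 4 had a count for 2, 12, 3 and 4 of them. Only Dicer1 and Tdrd6 had counts in every sperm sample. In sperm replicates 2 to 4, 24 members were at 0, and these 24 were at 0 in replicate 1 also. The samples also differed in depth. With every sample thinned to 33511 NM_ counts, 48.5% and 49.3% of the members were expected to keep at least 1 count in testes, and 4.84%, 22.1%, 8.11% and 10.0% in sperm replicates 1 to 4. Over all NM_ genes the same thinning left 41.3% and 37.5% in testes and 13.7%, 32.1%, 10.7% and 21.4% in sperm. At equal depth the members were thus seen more often than the average gene in both testes samples and less often in each of the 4 sperm samples, which is a description without a test.

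**Figure D1:**
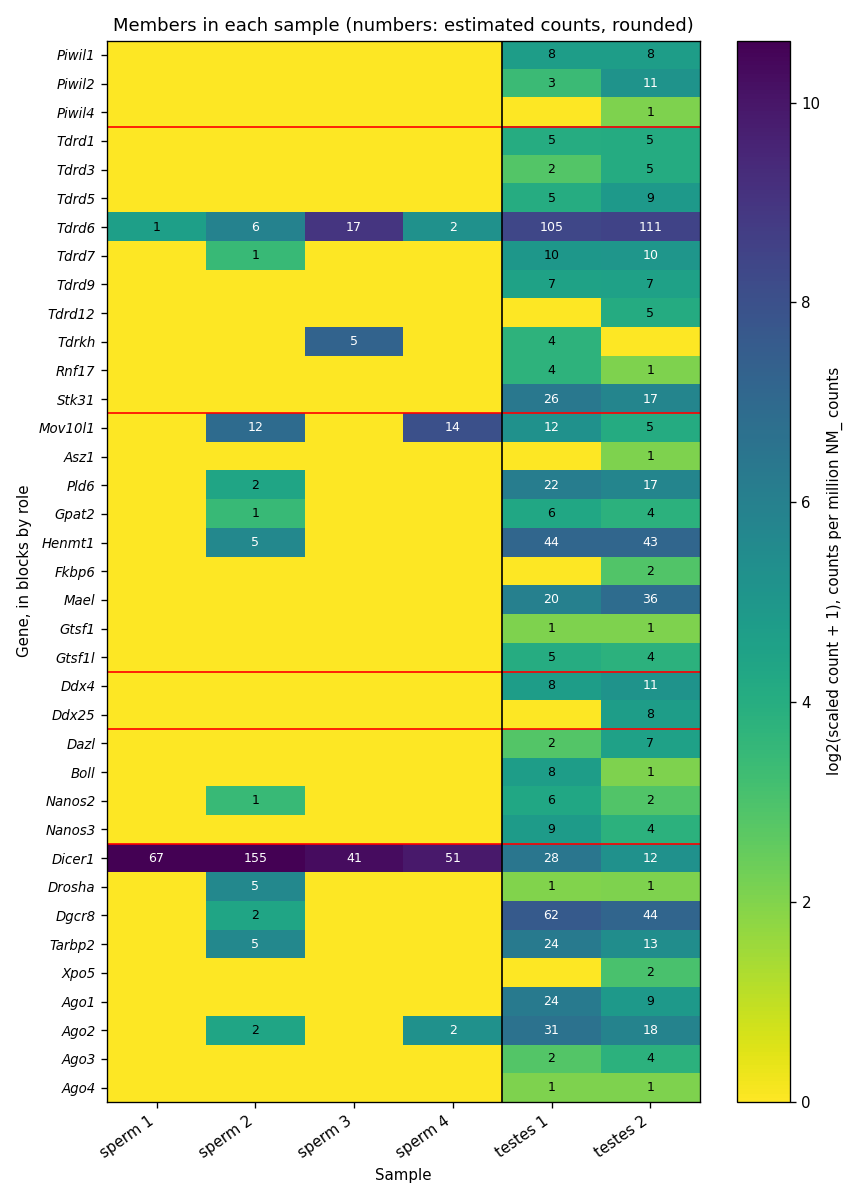
Heat map of the 37 members (rows, in blocks by role) in the 6 samples (columns); the colour is log2(CPM + 1) and the printed number is the rounded estimated count, left out at 0. Most rows were empty in sperm, Dicer1 had counts in all 6 samples, and testes had counts for 31 and 36 members.

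**Figure D2:**
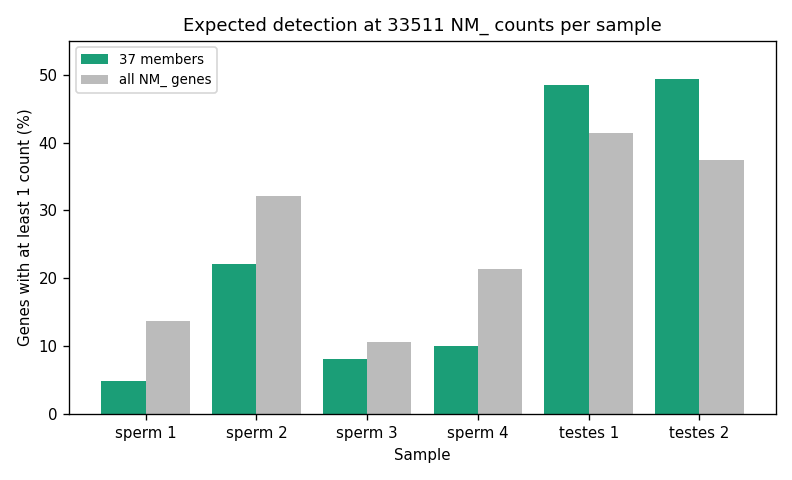
Percentage of the 37 members (green) and of all NM_ genes (grey) expected to have at least 1 count in each sample after thinning to 33511 NM_ counts. The green bar lay above the grey one in both testes samples and below it in all 4 sperm samples.

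For each member, the count that its testes level would have given in sperm replicates 2 to 4 pooled was compared with the count found. This expected count was above 3 for 18 members and at or under 3 for the others. Of the 24 members at 0 in sperm, 9 would have given more than 3 counts at the testes level and 15 would not, so for those 15 a lower level in sperm was not detectable at this depth. The 9 rest largely on sperm replicate 2, the deepest sperm sample. Without it the limit of 3 counts was 34.1 CPM and 3 of the 24 (Stk31, Mael and Ago1) would have given more than 3 counts, without sperm replicate 4 it was 5, and without any other library 8 to 10. In these bulk samples, fewer cells of a type and less RNA per cell cannot be told apart.

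**Figure D3:**
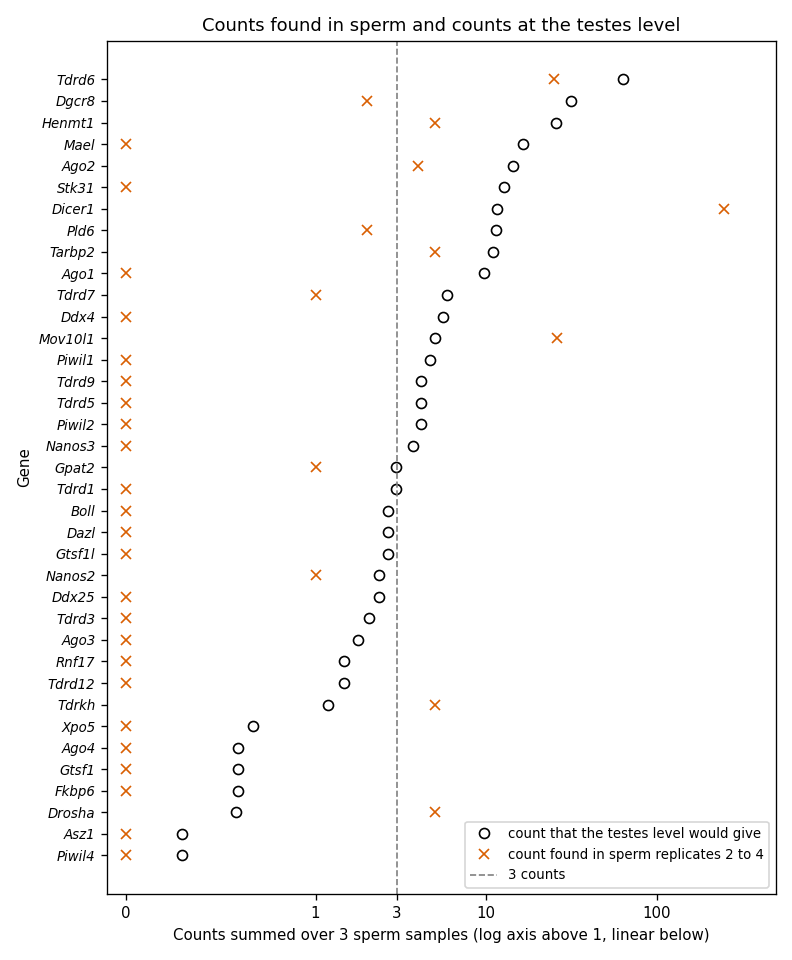
Counts found in sperm replicates 2 to 4 summed (crosses) and counts that the testes level would give there (circles), for the 37 members in order of the latter, on an axis that is linear below 1 and logarithmic above; the dashed line marks 3 counts. Dicer1, Mov10l1, Tdrkh and Drosha lay above the count expected at the testes level, and 24 members lay at 0.

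The test across all genes was edgeR's quasi-likelihood test on 6828 NM_ genes with at least 10 counts summed over the 5 samples compared, called at a Benjamini-Hochberg adjusted p below 0.05 and a fold change above 2. Of the members 20 passed this filter, 15 of them from the 28 piRNA, germ granule and germ cell genes, and 17 did not. Dicer1 was the single member called higher in sperm, and 3.54% of all genes tested were called higher. No member was called lower in sperm, where 3.65% of all genes were. Without adjustment 11 members had a p below 0.05 and a lower level in sperm, in a background of 30.0% of all genes. DESeq2 called 3 of the 20 lower (Dgcr8, Mael and Stk31) and 12.1% of all genes. Limma called 7 on log2(FPKM + 1) and 22.4% of all genes, and 12 on log2(FPKM + 0.1) and 26.2% of all genes. In 16 of the 20 every sperm value lay below both testes values, which held for 45.0% of all genes, and in 1 (Dicer1) every sperm value lay above, which held for 7.72%. No count in any of the 3 sperm samples was found for 10 of the 20, and for 22.4% of all genes. A gene at 0 in sperm could pass the filter through testes alone, so these counts describe the members that passed and not the whole list. The median log2 fold change (sperm over testes) was -4.25 over the 20 members and -1.19 over all genes tested. With 10 of the 20 at 0 in sperm, the members' median depends on this filter and on the small count that edgeR adds to 0, and it measures no typical change. That median over all genes moved to -1.83 with TMM factors, to -1.43 with the total of all transcript classes and to -2.22 with DESeq2. The members' median was -4.63, -4.40 and -3.68 under these 3 settings. Without sperm replicate 2 the median over all genes was -4.57 and that of the members -5.14. At such values both depend on the small count that edgeR adds to 0, so the gap could not be judged without that library. With limma on log2(FPKM + 1) the medians were -0.88 for the members and -0.71 for all genes, and on log2(FPKM + 0.1) -3.09 and -2.22. With edgeR's filterByExpr, which kept 5 members, the medians were -0.86 for the members and -0.16 for all genes. Of all calls 50.7% were lower in sperm, against 79.6% with TMM factors, 62.8% with the total of all transcript classes and 82.0% with DESeq2.

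**Figure D4:**
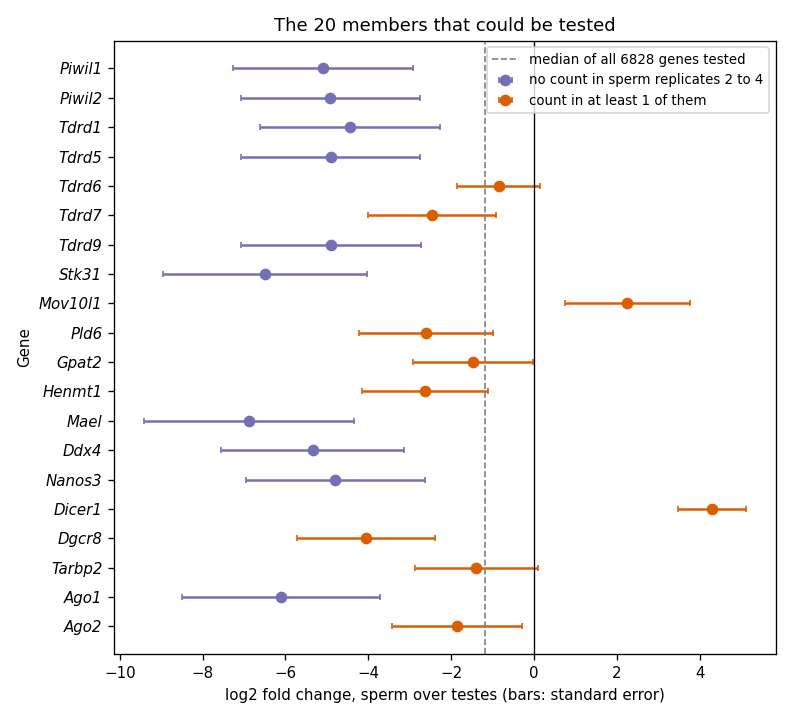
Log2 fold change, sperm over testes, of the 20 members tested (points) with its standard error (bars); genes without a count in sperm replicates 2 to 4 are purple, others orange, and the dashed line is the median of all 6828 genes (-1.19). The purple values depend on the small count that edgeR adds to 0 and are no bounds. Dicer1 and Mov10l1 lay above 0 and the other 18 below.

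Dicer1 encodes the RNase III enzyme that cuts microRNA precursors and long double-stranded RNA into small RNAs. Its only NM_ transcript in the tables was NM_148948 (9851 bases, chr12:104687740-104751968 in GRCm38.p6). Sperm replicates 1 to 4 had 66.67, 155, 41 and 51 estimated counts of it, and the testes samples 27.61 and 11.78, that is 1573, 1550, 1223 and 939 CPM against 85.6 and 37.5 CPM. All 4 sperm values lay above both testes values, with no overlap. The mean was 1237 ± 306 CPM (SD, n = 3) in sperm replicates 2 to 4 and 61.5 ± 34.0 CPM (SD, n = 2) in testes, and the log2 fold change was 4.29 with a standard error of 0.82 (edgeR adjusted p = 1.18e-05). Relative to the median of all genes, it was 5.48 higher on the log2 scale. By count Dicer1 ranked 73, 70, 118 and 132 among the NM_ genes in these 4 sperm samples, and 1843 and 3143 in the testes samples. Per length, it stood at 12.1 ± 2.42 FPKM (fragments scaled by transcript length and by mapped fragments, SD, n = 3) in sperm and 0.720 ± 0.368 FPKM (SD, n = 2) in testes, where it was 20th of the 37 members. The call was kept in 12 of 14 alternatives, with log2 fold changes of 2.93 to 4.98 and edgeR, DESeq2 or limma adjusted p-values of 4.87e-14 to 0.135 over all 14. It was lost with TMM factors (log2 fold change 3.63, adjusted p = 0.0546) and with no filter on low counts (4.29, adjusted p = 0.135). The fractions in the counts show that some fragments were divided among transcripts, and the tables give no position along the transcript, so how much of its length was covered in sperm was not tested.

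Dicer1 made up most of what the members held in sperm. Its share of the members' summed counts was 98.5%, 78.7%, 65.1% and 73.9% in the 4 sperm samples, against 5.59% and 2.68% in the testes samples. The summed level of all 37 members was 1596, 1969, 1880 and 1270 CPM in sperm and 1531 and 1400 CPM in testes, so the ranges overlapped, and the ratio of the means was 1.16 (0.694 with TMM factors, which turns its direction, and 0.965 with the total of all transcript classes). Without Dicer1 the sum was 23.6, 420, 657 and 331 CPM in sperm and 1446 and 1363 CPM in testes. Then no sperm sample reached either testes sample, and the ratio of the means was 0.334 (0.180 with TMM factors). Dicer1 was left out because it was high in these same data, so the lower ratio is a description without a test. Among all single genes tested, 45.0% had every sperm value below both testes values, and the median log2 fold change was -1.19. The 28 piRNA, germ granule and germ cell genes summed to 23.6, 280, 657 and 294 CPM in sperm and 997 and 1069 CPM in testes, a ratio of 0.397 (0.196 with TMM factors). The microRNA and siRNA machinery summed to 1573, 1690, 1223 and 975 CPM in sperm and 535 and 331 CPM in testes, a ratio of 2.99 (1.90 with TMM factors), which became 0.159 when Dicer1 was left out.

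**Figure D5:**
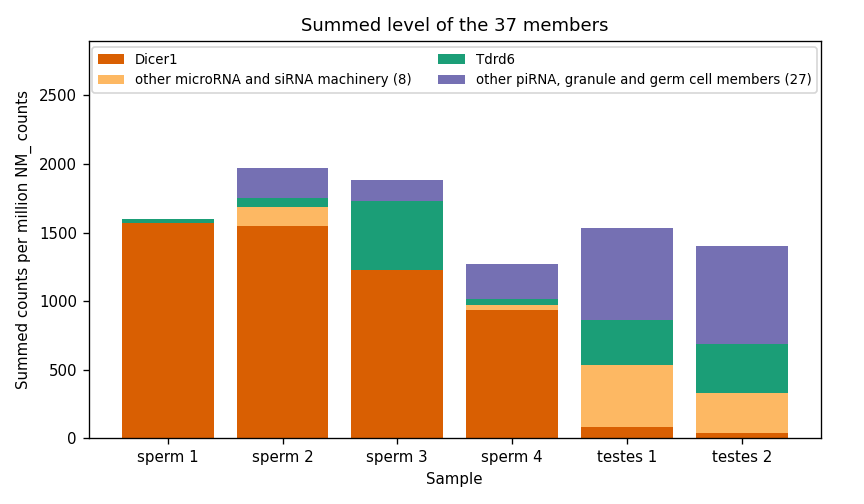
Summed CPM of the members in each sample, stacked as Dicer1, the other 8 genes of the microRNA and siRNA machinery, Tdrd6 and the other 27 genes. The bar heights of sperm and testes overlapped on this scale (ratio of means 1.16, and 0.694 with TMM factors), but Dicer1 filled 65.1% to 98.5% of the sperm bars and 2.68% and 5.59% of the testes bars.

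The PIWI proteins, which carry the piRNAs, had no count in any sperm sample. Piwil1 (MIWI), the PIWI protein of spermatocytes and round spermatids, had 8 counts in each testes sample (24.8 and 25.5 CPM). Its log2 fold change was -5.09 with a standard error of 2.18 (edgeR adjusted p = 0.0799). With the sperm group set at the limit of 3 counts its level was 1.57-fold lower, but without sperm replicate 2 that limit lay above its testes level and gave no bound. Piwil2 (MILI), which acts from the fetal germ line onward, had 3 and 11 counts in testes (adjusted p = 0.0862), and its bound was lost without sperm replicate 2, without sperm replicate 4 and without testes replicate 2. Piwil4 (MIWI2), the nuclear PIWI protein of fetal germ cells, had 0 and 1 count in testes and was not tested. All 3 together would have given 9.14 counts in sperm at the testes level, and none was found.

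Tudor domain proteins were led by Tdrd6, a large chromatoid body protein of spermatids (chr17:43615334-43631846 in GRCm38.p6). Its counts were 1, 6, 17 and 2 in the 4 sperm samples against 105 and 111 in the testes samples, that is 23.6, 60.0, 507 and 36.8 CPM against 325 and 353 CPM. Sperm replicate 3 lay above both testes samples and the other 3 lay far below. The log2 fold change was -0.85 with a standard error of 1.00 (edgeR adjusted p = 0.550), and without sperm replicate 3 it was -2.73 with a standard error of 0.77 (adjusted p = 0.00410, a call, and 0.00410 to 0.922 over all alternatives). All Tdrd6 counts in sperm were on NM_001161367, which also held most of them in testes (105 and 81.83), while 2 other transcripts had 6.09 and 23.08 counts in testes replicate 2 alone. Stk31, a Tudor domain protein with a kinase-like part, had no count in sperm and 26 and 17 counts in testes (80.6 and 54.1 CPM). Its log2 fold change was -6.49 with a standard error of 2.47 (edgeR adjusted p = 0.0746). With sperm set at the limit of 3 counts its level was 4.23-fold lower (1.98-fold without sperm replicate 2). Stk31 was called without sperm replicate 3 (edgeR adjusted p = 0.0449, and 0.00233 to 0.750 over all alternatives). Tdrkh, which tethers PIWI proteins at mitochondria for trimming, had 5 counts in sperm replicate 3 (149 CPM), none in the other sperm samples, and 4 and 0 counts in testes, and was not tested. Of the other 7 members of this role, 6 were at 0 in all 4 sperm samples and Tdrd7 had 1 count in sperm replicate 2. Their testes means ran from 7.79 CPM in Rnf17 to 31.4 CPM in Tdrd7. The 4 of them tested had adjusted p-values of 0.0862 (Tdrd5 and Tdrd9), 0.108 (Tdrd1) and 0.230 (Tdrd7). In Tdrd1 all 5 counts of testes replicate 1 were on NM_031387 and all 5 of replicate 2 on NM_001002240, so at these counts gene sums are steadier than transcripts.

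Among the piRNA biogenesis factors, Mov10l1 was the 1 tested member with a positive fold change. It is the RNA helicase that binds piRNA precursors. Its counts were 0, 12, 0 and 14 in the 4 sperm samples (0, 120, 0 and 258 CPM) against 12 and 5 in the testes samples (37.2 and 15.9 CPM). Sperm replicates 1 and 3 had none, and replicates 2 and 4 lay above both testes values. The log2 fold change was 2.25 with a standard error of 1.52 (edgeR adjusted p = 0.267), and without sperm replicate 3 it was 2.76 (adjusted p = 0.0257, a call, and 0.0257 to 0.945 over all alternatives).

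Henmt1 and Mael had the highest mean testes levels of the biogenesis factors, although Pld6 lay above Mael in testes replicate 1. Mael (Maelstrom), a granule protein needed for transposon silencing in meiosis, had 20 and 36 counts in testes (62.0 and 115 CPM) and none in the 4 sperm samples. Its log2 fold change was -6.88 with a standard error of 2.53 (edgeR adjusted p = 0.0683). With sperm set at the limit of 3 counts its level was 5.51-fold lower (2.58-fold without sperm replicate 2). Without sperm replicate 3 Mael was called (edgeR adjusted p = 0.0204, and 0.00295 to 0.750 over all alternatives). Henmt1, the methyltransferase that modifies the 3′ ends of piRNAs, had 44 and 43 counts in testes (136 and 137 CPM). In sperm it had 5 counts, all in replicate 2 (50.0 CPM), and its log2 fold change was -2.64 with a standard error of 1.52 (adjusted p = 0.188). Per length, Henmt1 was the highest member in testes (7.74 ± 0.410 FPKM, SD, n = 2), followed by Mael (6.93 ± 3.23) and Tdrd6 (5.64 ± 0.601). The values of Mael in the testes samples overlapped those of both genes, and Henmt1 lay above Tdrd6 in both samples. Pld6, the mitochondrial nuclease Zucchini, had 2 counts in sperm replicate 2 (20.0 CPM), none in the other sperm samples, and 21.94 and 16.99 counts in testes (68.0 and 54.1 CPM), with a log2 fold change of -2.60 (adjusted p = 0.224). Gpat2, a mitochondrial protein of primary piRNA processing, had 1 count in sperm and 6 and 4 in testes (adjusted p = 0.463). Asz1, Fkbp6, Gtsf1 and Gtsf1l were at 0 in sperm and had 0 to 5 counts in a testes sample, below the filter.

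The germ granule helicases and germ cell RNA-binding proteins were near the limit in testes already. Ddx4 (the mouse Vasa homologue), the RNA helicase that marks germ granules, had 8 and 11 counts in testes and none in sperm (log2 fold change -5.34, edgeR adjusted p = 0.0746), and no bound held without sperm replicate 2. All counts of Ddx4 were on NM_010029 in testes replicate 1 and on NM_001145885 in replicate 2. Ddx25, a helicase of spermatids, had 0 and 8 counts in testes and none in sperm. Nanos3, a repressor of translation that protects early germ cells, had 8.56 and 4 counts in testes and none in sperm (adjusted p = 0.0903), and no bound held without sperm replicate 2, sperm replicate 4 or testes replicate 1. Dazl and Boll, translational regulators of the DAZ family, had no count in sperm, and Nanos2, which keeps spermatogonial stem cells, had 1 count in sperm replicate 2, with 1 to 8 counts for these 3 genes in each testes sample.

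Within the microRNA and siRNA machinery, the genes besides Dicer1 had few counts in sperm. Dgcr8, the RNA-binding partner of Drosha in the microprocessor, had 2 counts in sperm replicate 2 (20.0 CPM), none in the other sperm samples, and 62 and 44 counts in testes (192 and 140 CPM). Its log2 fold change was -4.05 with a standard error of 1.67 (edgeR adjusted p = 0.0746), and it was called lower without sperm replicate 3 (adjusted p = 0.0139, and 0.0120 to 0.750 over all alternatives). Drosha, the nuclease of the same complex, had 5 counts in sperm replicate 2 (50.0 CPM), 0.97 and 1 count in testes, and was not tested. In testes Dgcr8 thus had far more counts than Drosha, its partner of similar transcript length (4225 and 4567 to 4571 bases).

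Tarbp2, an RNA-binding partner of Dicer1, had 5 counts in sperm replicate 2 (50.0 CPM), none in the other sperm samples, and 24 and 13 counts in testes, with a log2 fold change of -1.40 (edgeR adjusted p = 0.507). Ago2, the Argonaute protein that can cleave its targets, had 0, 2, 0 and 2 counts in sperm and 31 and 18 in testes (log2 fold change -1.86, adjusted p = 0.391). Ago1 had no count in sperm and 24 and 9 in testes (log2 fold change -6.11 with a standard error of 2.39, adjusted p = 0.0746). With sperm set at the limit of 3 counts its level was 3.24-fold lower, 1.52-fold without sperm replicate 2 and 1.79-fold without testes replicate 1. These Ago1 counts were divided evenly between NM_001317173 and NM_153403, which have the same length of 7226 bases. Ago3, Ago4 and Xpo5, the exporter of microRNA precursors, were at 0 in sperm and had 0 to 4 counts in a testes sample. The 8 genes without Dicer1 summed to 0, 140, 0 and 36.8 CPM in sperm and 449 and 294 CPM in testes, so that no sperm sample reached either testes sample. Here too Dicer1 was left out for its level in these data, and the sum is a description without a test.

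Promoters of some members that were at 0 in sperm are shown beside that of Dicer1, the member that was higher there. Each is the 250 bases before a RefSeq start (GRCm38.p6), read 5′ to 3′ on the strand of the gene: Piwil1 on the plus strand at chr5:128735996-128736245, Stk31 on the plus strand at chr6:49395289-49395538, Mael on the minus strand at chr1:166238745-166238994 and Dicer1 on the minus strand at chr12:104751953-104752202. Capitals mark the letters AACTGNC, a motif of MYB factors such as A-MYB (Mybl1), on either strand, and CACGTG, an E-box, which reads the same on both strands.
Piwil1: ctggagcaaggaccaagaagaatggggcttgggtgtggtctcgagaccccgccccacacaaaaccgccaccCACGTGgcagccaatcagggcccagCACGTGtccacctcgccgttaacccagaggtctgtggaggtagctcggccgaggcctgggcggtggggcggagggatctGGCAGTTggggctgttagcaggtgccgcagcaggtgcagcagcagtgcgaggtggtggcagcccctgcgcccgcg
Stk31: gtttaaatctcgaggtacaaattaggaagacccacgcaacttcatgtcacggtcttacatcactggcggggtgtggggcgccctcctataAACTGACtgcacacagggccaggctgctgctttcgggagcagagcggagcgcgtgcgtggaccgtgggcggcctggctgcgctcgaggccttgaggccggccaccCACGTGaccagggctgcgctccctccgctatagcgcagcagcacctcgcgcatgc
Mael: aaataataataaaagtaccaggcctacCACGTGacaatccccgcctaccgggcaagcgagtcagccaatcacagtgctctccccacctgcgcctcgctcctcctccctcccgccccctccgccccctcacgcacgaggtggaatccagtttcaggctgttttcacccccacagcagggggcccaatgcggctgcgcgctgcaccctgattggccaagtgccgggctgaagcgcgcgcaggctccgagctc
Dicer1: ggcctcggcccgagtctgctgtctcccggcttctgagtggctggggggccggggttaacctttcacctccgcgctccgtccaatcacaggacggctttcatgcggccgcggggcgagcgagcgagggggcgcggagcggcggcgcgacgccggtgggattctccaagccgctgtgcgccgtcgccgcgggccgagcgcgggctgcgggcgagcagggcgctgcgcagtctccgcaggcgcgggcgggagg
Counted from -1 at the last base before the start, Piwil1 had the MYB letters at position -75 and E-boxes at -179 and -154. Stk31 had them at -160 and an E-box at -55. Mael had an E-box at -223, and Dicer1 had neither motif. The promoters shown are examples with a motif: other members at 0 in sperm, such as Tdrd5, Ago1, Nanos3 and Dazl, had neither. Mov10l1, which had a positive fold change that was not called, had an E-box. Whether the letters go with the level in sperm was not tested. RefSeq promoters were found for 33 members. The MYB letters were in 5 of these 33 (Piwil1, Tdrd7, Tdrkh, Stk31 and Fkbp6) and in 12.1% of the 27025 genes with a promoter. The E-box was searched for after these sequences had been seen. It was in 10 of the 33 (Piwil1, Tdrd1, Tdrd9, Stk31, Mov10l1, Pld6, Fkbp6, Mael, Ddx4 and Boll), all of them among the 25 piRNA, germ granule and germ cell genes with a promoter and none among the 8 genes of the microRNA and siRNA machinery, and in 6.86% of all genes. The cyclic AMP response element TGACGTCA, also searched on both strands, was in no member and in 1.77% of all genes. A match is a description of letters and no sign that a factor was bound.

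Other genes of these pathways were taken from fixed lists of 38 names, of which 31 were in the tables and 20 were tested. Of these 20, 2 were called lower in sperm and none higher in edgeR's test, where 3.65% of all genes were called lower. The chaperone Hsp90aa1 had 0, 3.2, 0 and 1 counts in the 4 sperm samples against 106 and 406 in the testes samples, and its log2 fold change was -5.32 with a standard error of 1.08 (edgeR adjusted p = 5.50e-05). Every sperm value lay below both testes values, which themselves differed widely. Cnot1, the scaffold of the CCR4-NOT deadenylase that acts in microRNA silencing, had 0, 2, 0 and 3 counts in sperm and 250 and 123 in testes, with a log2 fold change of -4.41 and a standard error of 1.14 (adjusted p = 0.00378). Both calls were lost with no filter, without sperm replicate 2 and without testes replicate 2, and that of Cnot1 also without testes replicate 1 and with single transcripts. By list, 1 of 6 tested of the other piRNA pathway genes, 0 of 7 of the other chromatoid body genes and 1 of 7 of the other microRNA and RNA silencing genes were called lower. Without adjustment 10 of the 20 had a p below 0.05 and a lower level in sperm, in a background of 30.0%. The median log2 fold change was -3.05 over the 20 and -1.19 over all genes. Of the 20, 6 had no count in sperm replicates 2 to 4 and passed the filter through testes alone, so this median also depends on the filter.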

How the data were processed

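RNA of 4 sperm and 2 testes samples was grouped by sample title. The authors removed adaptors, empty reads and poor reads and aligned the rest. Their methods name SOAPaligner/SOAP2 and the submitters' processing notes name HISAT and the mm10 build, without versions. The counting program is not given in the sources used here. The deposited tables list, per transcript with a value above 0, the length, an estimated count of fragments and FPKM, which the authors scaled by transcript length and by mapped fragments. Transcripts that a table did not list were given a value of 0.

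Estimated counts of NM_ rows were summed per gene, rounded and tested by edgeR's quasi-likelihood test with the NM_ total as library size. The standard error given with an edgeR fold change was derived from that fold change and its test statistic. NM_ totals were 42390, 100027, 33511 and 54337 for the 4 sperm libraries and 322625 and 314273 for the testes libraries, and NM_ rows held 9.14% to 12.1% of all counts. No replicates were merged, since counts of replicates differed by more than sampling noise (chi-square over its degrees of freedom 4.91 to 12.5). Members and lists were chosen with earlier results of these data known. Given with the value of every sample were members that were called, members with at least 3 counts in 1 of sperm replicates 2 to 4, and the 10 highest in testes (13 members in all). Replicate numbers were not taken to pair samples, because the labels do not say that a number marks a shared pool. Deviations from group means correlated at -0.0188 and -0.0407 for numbers 1 and 2 over 6828 genes. With 2 testes samples, whose deviations mirror each other, this cannot show whether pools shared mice. Alternatives were TMM, all-class totals, DESeq2, other filters, limma on log2(FPKM + 1) or log2(FPKM + 0.1), replicates left out, a replicate block, a stricter threshold of 0.01 and single transcripts. All 37 symbols matched RefSeq (GRCm38.p6), which gave coordinates and promoters. On simulated counts of 6828 genes for this comparison, with 200 changed 16-fold at the estimated spread, edgeR recovered 96 with 2 false calls, DESeq2 139 with 9 and limma 0. At a low spread edgeR recovered 200 with 10 false calls, DESeq2 199 with 0 and limma 146 with 85. The changed genes had a mean of at least 10 counts per sample, above many members, whose recovery was thus not simulated. Limma was run there on log2(CPM + 1) and not on FPKM. Versions were Python 3.11.15, R 4.3.3, edgeR 4.0.16, limma 3.58.1 and DESeq2 1.42.0.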

Additional observations from a re-analysis of the deposited data

Results flagged for a closer look

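Of 19 genes or sums examined over the 4 sperm samples, 8 had 1 sample far from the others (past Dixon's 95% critical value for 4 samples) at a level that chance reaches in about 1 in 20 groups of continuous values. In 6 of the 8 (Tdrkh, Pld6, Henmt1, Drosha, Dgcr8 and Tarbp2) the other 3 samples were at 0, so that the gap is the whole range by construction and this chance level does not apply. Sperm replicate 3 stood apart in Tdrd6 (507.3 CPM, gap over range 0.925), in Tdrkh (149.2 CPM) and in the summed Tudor domain proteins (656.5 CPM, 0.927), which hold both genes. Sperm replicate 2, the deepest sperm sample, stood apart in Henmt1, Drosha and Tarbp2 (49.99 CPM each) and in Pld6 and Dgcr8 (19.99 CPM each), where it had 5 or 2 counts and the other sperm samples 0. Sperm replicate 1, which no comparison used, had Dicer1 at 1573 CPM, above both testes samples (85.6 and 37.5 CPM).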

How the results depend on the processing

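Members called lower in sperm numbered 0 with edgeR as reported and 0 with TMM factors, the all-class total, no filter, the stricter threshold and single transcripts. They numbered 3 with DESeq2, which called 12.1% of all genes lower, and 7 and 12 with limma at pseudocounts of 1 and 0.1 (22.4% and 26.2% of all genes). With edgeR's filterByExpr 1 (Dgcr8) of the 5 members kept was called lower, and 295 of 1976 genes. When all 4 sperm samples were used with no replicate block, 8 members and 1233 of 6828 genes were. Where these settings are used for other pathway genes below, the same shares apply. With a sperm replicate left out they numbered 0 to 4. The 4 without sperm replicate 3 were Dgcr8, Mael, Stk31 and Tdrd6, in a background of 698 of 6725 genes called lower. Members called higher numbered 1 as reported, 0 with TMM factors and with no filter, and 1 to 2 with replicates left out (Dicer1 and Mov10l1 without sperm replicate 3). Other pathway genes called lower numbered 2 as reported, 5 with DESeq2, 0 with no filter, 6 and 9 with limma at pseudocounts of 1 and 0.1, 6 with all 4 sperm samples, 1 with single transcripts and 0 to 4 with replicates left out. Those called higher numbered 0, and 0 to 1 with replicates left out (Upf1 without sperm replicate 3). The summed ratio of 1.16 was 0.694 with TMM factors and 1.07 to 1.31 with replicates left out. The ratio of members with a count, sperm to testes, was 0.189 and 0.275 after thinning. Of 147 fold changes of named members under alternatives, 124 kept their side of the threshold, 2 lost the call, 21 gained one and 0 changed sign. With each library left out, an alternative chosen after seeing the data, 3 to 10 of the 24 members at 0 in sperm (9 as reported) would have given over 3 counts at the testes level. The cause of the other changes was not tested.

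With the replicate number as a block, over all 4 sperm samples, no member was called lower (8 without the block) and Dicer1 was called higher with a log2 fold change of 4.72 (edgeR adjusted p = 4.09e-07). Whether the numbers pair the samples is not known, since the labels do not say that a number marks a shared pool.

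Over all genes, lower and higher calls were 249 and 242 as reported, 90 and 23 with TMM factors, 363 and 215 with the all-class total, 824 and 181 with DESeq2, 4 and 15 with no filter, 1529 and 230 or 1792 and 199 with limma at pseudocounts of 1 and 0.1, 1233 and 270 with all 4 sperm samples, and 104 and 163 with the block. With replicates left out they were 49 to 698 lower and 60 to 606 higher, the highest of both without sperm replicate 3.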
